A study of Homo sapiens with 6 samples.

Results

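The genes described here are the cyclins, cyclin-dependent kinases (CDKs), CDK inhibitors and E2F transcription factors of a human neuroblastoma line. They were picked out by a rule on gene symbols: CCNA to CCNL with an optional digit, CDK or E2F with a number, and CDKN with a digit and a letter from A to D, with CCNB2 set aside by the rule. The rule found 42 genes on 43 of the 53617 probe sets, among 14884 genes with a name in the platform annotation. CCND2 had 2 probe sets, and the brighter one stood for it. The 12 further genes that fit the rule and are known to belong here, CCNA1, CCNI2, CDK3, CDKN1A, CDKN1B, CDKN1C, CDKN2B, CDKN2C, CDKN2D, E2F4, E2F5 and E2F6, are not analysed here, so CDKN2A was the only inhibitor.

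The cells were BE(2)-C, a cloned line from a neuroblastoma, carrying a tet-off construct for KDM4C, an enzyme that removes methyl groups from lysine 9 of histone H3. Both groups carried the construct and grew in the same medium with dialyzed serum for 6 days. Doxycycline was present in 3 samples (construct off) and absent from the other 3 (construct on), with 1 Affymetrix whole-transcript array each. Cells without the construct were not analysed here, so induction of KDM4C and withdrawal of doxycycline cannot be told apart. KDM4C was at 7.76 ± 0.05 with and 9.03 ± 0.05 without the drug (log2, SD, n = 3 each). It rose 2.40-fold (limma adjusted p = 0.0079), with groups 1.17 apart. The call was lost when same-numbered arrays were blocked, and without untreated replicate 2 or 3, where no probe set passed. All 9 measured markers of noradrenergic neuroblastoma lay above the median value of 3.95, at 8.80 (GATA2) to 11.14 (DBH), whereas the blood marker CD14 and the endothelial markers PECAM1 and KDR lay below it. Of the markers of other cells, 4 of 7 mesenchymal genes (SNAI2, TWIST1 and VIM at 9.02, 8.18 and 8.13, and YAP1), 1 of 2 Schwann genes and 1 of 2 epithelial genes lay above it.

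A cyclin binds a CDK and switches on its kinase activity, and successive pairs drive successive steps of the cell cycle. D-type cyclins with CDK4 or CDK6 begin to phosphorylate the retinoblastoma protein RB in G1, which frees E2F factors to induce genes of DNA synthesis. E-type cyclins with CDK2 complete that step, cyclin A acts in S phase and G2, and cyclin B with CDK1 starts mitosis. A separate branch of the family, among them CDK7, CDK8, CDK9, CDK12 and CDK13, phosphorylates RNA polymerase II or works within the Mediator complex. Neuroblastoma cells often have high cyclin D1 and CDK4 activity, and MYCN amplification is known to ease their passage through G1.

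The array values are log2 expression values as the authors deposited them. A difference of 1 is a doubling, and every difference given is no doxycycline minus doxycycline. The test was limma's moderated test over all 53617 probe sets, with p-values adjusted by Benjamini and Hochberg. None of the 42 genes passed an adjusted p of 0.05 in either direction, where 0.341% of all probe sets did. At an unadjusted p below 0.05, 9 genes were higher and 4 lower without doxycycline. At that level 7.57% of all named genes were higher and 6.87% were lower. Over all probe sets these shares were 6.7% and 5.73%. The 9 higher genes were CCNB1, CCNF, CCNA2, E2F7, CDK2, E2F8, CDK19, CCNB3 and CCNG2, and the 4 lower ones CCNG1, CDK14, CCND2 and CCNE2. The other 29 genes had differences between -0.13 and 0.16. The lower count rested on single arrays: it was 1 without doxycycline-treated replicate 1 and 2 without doxycycline-treated replicate 3 or untreated replicate 1 or 3.

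Signs were balanced over the family: 21 genes had positive and 21 negative differences, with a median of -0.004 beside -0.002 over all named genes. The median varied with the phase of action. It was 0.33 for the 4 genes of G2/M, 0.23 for the 4 of G1/S and S phase, 0.13 for the 5 E2Fs and 0.03 for the 6 of G1. It was -0.05 for the 12 transcriptional CDKs and cyclins and -0.08 for the 11 remaining genes. These medians describe small groups on 6 arrays, and differences between groups were not tested. Markers of cell state differed by similar amounts, though none passed the adjusted threshold. Of the 9 noradrenergic markers, 2 were higher without doxycycline at an unadjusted p below 0.05 (TH at 0.34 and DBH at 0.28) and 2 lower (CHGA at -0.40 and CHGB at -0.34). Of the 7 mesenchymal markers, 1 was higher (SNAI2 at 0.40) and 2 lower (CD44 at -0.67 and VIM at -0.19). CD44 was dim, with a mean of 3.82 below the median value of 3.95. At that level of p, 7.57% of all named genes were higher and 6.87% lower. The mean level of each list overlapped between the groups, at 9.80 to 9.89 with and 9.82 to 9.91 without the drug for the noradrenergic genes, and at 5.73 to 5.80 and 5.67 to 5.75 for the mesenchymal ones. Their part in the medians was not tested. RNA came from bulk cultures, so a larger share of cells in a phase and more transcript per cell cannot be told apart.

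**Figure D1:**
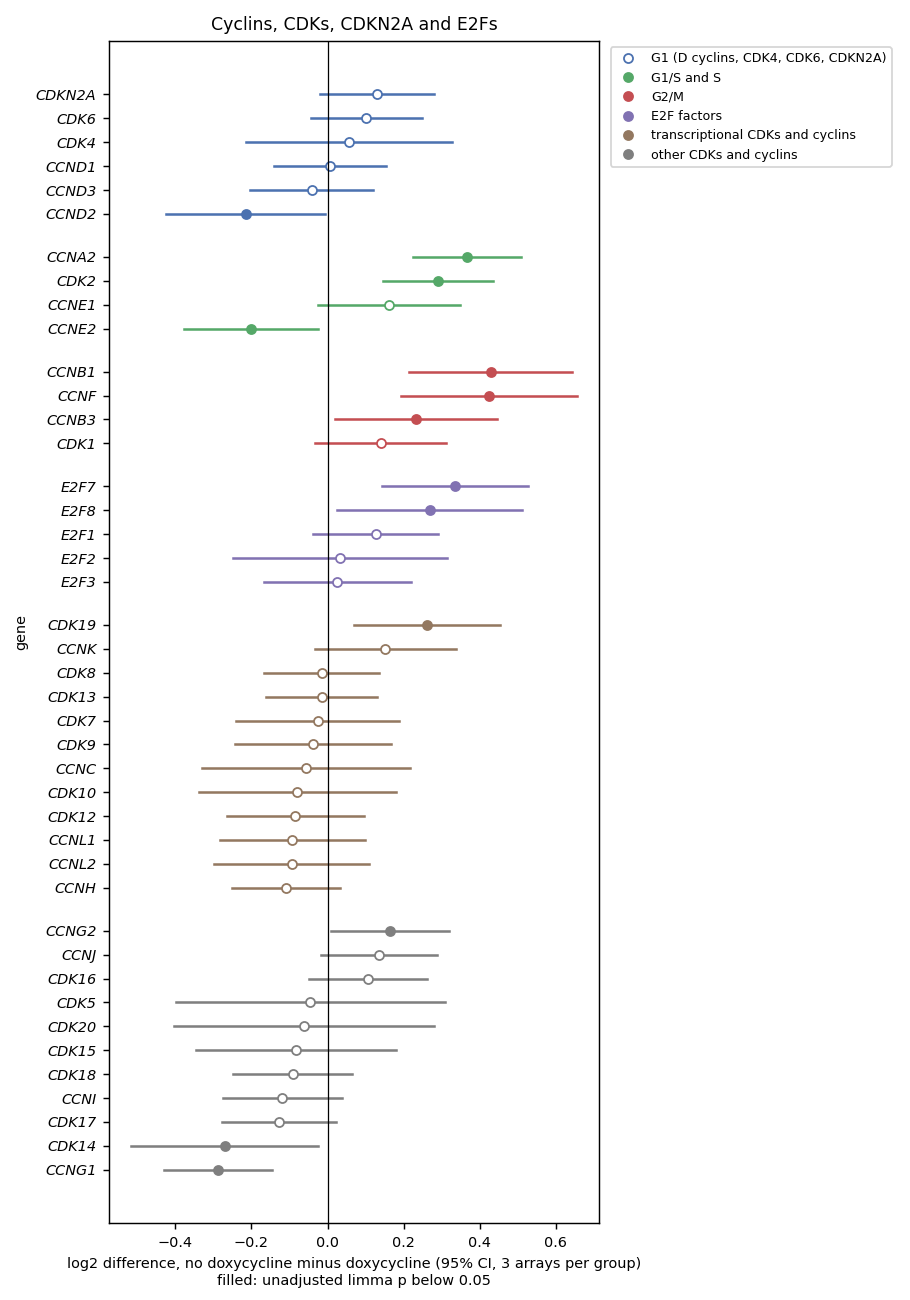
Log2 difference (no doxycycline minus doxycycline) of each of the 42 genes, with its 95% confidence interval from 3 arrays per group, sorted within the phase or branch of action. Filled points have an unadjusted limma p below 0.05. All 4 genes of G2/M and all 5 E2Fs lie right of 0, and 10 of 12 transcriptional genes lie left of it. Among these, E2F2, E2F3, CCNC, CDK7, CDK8, CDK9 and CDK13 cross 0 with some single arrays left out.

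The upstream sequences of 4 genes that act from S phase to mitosis are shown, CCNA2, CCNB1, CCNF and CDK1. All 4 had higher values in every array without doxycycline, as given below. The same held for CCNB3 of G2/M, which is not shown. Each sequence is the 170 bases before the RefSeq start site (GRCh38.p14), 5′ to 3′ on the gene's strand. Capitals mark matches to CCAAT, the core of the box bound by NF-Y, and to TTTGAA, the core of the cell cycle homology region (CHR) known from promoters of mitotic genes, on either strand. The stretches lie at chr4:121823884-121824053 (minus strand), chr5:69166980-69167149 (plus), chr16:2429277-2429446 (plus) and chr10:60778161-60778330 (plus).
CCNA2: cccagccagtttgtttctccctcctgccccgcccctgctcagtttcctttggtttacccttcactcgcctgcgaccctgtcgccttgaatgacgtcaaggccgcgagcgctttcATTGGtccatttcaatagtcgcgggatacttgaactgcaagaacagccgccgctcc
CCNB1: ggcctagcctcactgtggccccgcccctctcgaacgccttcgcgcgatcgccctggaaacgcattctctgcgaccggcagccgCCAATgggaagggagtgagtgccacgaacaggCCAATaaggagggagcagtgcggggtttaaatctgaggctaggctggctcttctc
CCNF: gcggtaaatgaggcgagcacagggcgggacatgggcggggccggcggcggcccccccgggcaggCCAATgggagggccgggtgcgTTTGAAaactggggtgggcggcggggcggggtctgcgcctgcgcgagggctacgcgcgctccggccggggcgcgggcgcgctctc
CDK1: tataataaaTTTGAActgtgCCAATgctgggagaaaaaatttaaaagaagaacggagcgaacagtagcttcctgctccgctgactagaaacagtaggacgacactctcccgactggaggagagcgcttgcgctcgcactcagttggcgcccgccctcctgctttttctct

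All 4 stretches hold at least 1 CCAAT, read as ATTGG in CCNA2. It begins 56 bases before the start of CCNA2, 87 and 55 bases before that of CCNB1, 106 before that of CCNF and 150 before that of CDK1. CCNF and CDK1 also hold TTTGAA, 85 and 161 bases before the start. Only this spelling of the CHR core was searched, so other spellings are not marked in any of the sequences. RefSeq promoters of 300 bases, 250 before and 50 after the start, were used for 37 of the 42 genes, and those of the other 5 are not analysed here. CCAAT was in 16 of these 37 (43.2%) and in 35.7% of 27305 promoters of all genes, and TTTGAA in 5 (13.5%) and 15.4%. The 5 with TTTGAA were CCNF, CDK1, CDK19, CCNC and E2F3, with differences from -0.06 for CCNC to 0.42 for CCNF. The promoter of CCNB3 held neither CCAAT nor TTTGAA. An E2F site, searched as TTTCGCGC, TTTGGCGC, TTTCCCGC and TTTGCCGC on both strands, was in 6 of the 37 (16.2%) and in 3.33% of all promoters. The 6 were CDK1, E2F1, E2F2, E2F3, CDK10 and CDK19. Their differences ran from -0.08 for CDK10 to 0.26 for CDK19. These are matches of letters, and binding was not measured.

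CCNB1 and CCNF had the largest positive differences of the 42 genes. CCNB1, the cyclin that activates CDK1 at entry into mitosis, was at 8.58, 8.74 and 8.45 with doxycycline and at 8.97, 9.00 and 9.09 without it. Every array without the drug lay above every array with it, by at least 0.23. The difference was 0.43 (SE 0.09, 95% confidence interval 0.21 to 0.64, 1.35-fold), with an unadjusted p of 0.0023 and a limma adjusted p of 0.141. CCNF, which marks proteins for destruction in G2 as part of an SCF ubiquitin ligase and binds no CDK, was at 7.60, 7.93 and 7.76 with and 8.14, 8.16 and 8.25 without doxycycline. Its groups were also apart, by 0.21, and the arrays with the drug were the more scattered (SD 0.17 against 0.06). The difference was 0.42 (SE 0.10, 1.34-fold, limma adjusted p = 0.167).

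CCNB3, a cyclin known mainly from meiosis, was close to the median value of all probe sets, at 4.09 in 1 array and 4.0 in the other two with doxycycline, and at 4.18, 4.43 and 4.18 without it. Its groups were apart by 0.09, and the difference of 0.23 (SE 0.09, limma adjusted p = 0.365) leaned on replicate 2 without the drug. Without that array it was 0.15. CDK1, the mitotic kinase itself, was at 8.39, 8.49 and 8.30 with and 8.55, 8.54 and 8.50 without doxycycline. The lowest array without the drug exceeded the highest with it by 0.02 only. The difference of CDK1 was 0.14 (SE 0.07, 95% confidence interval -0.03 to 0.31).

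CCNA2, the S phase and G2 cyclin, had the smallest p of all 42 genes. It was at 10.64, 10.62 and 10.62 with doxycycline and at 10.98, 11.03 and 10.97 without it. The groups lay 0.32 apart, the widest gap of the family. The difference was 0.37 (SE 0.06, 95% confidence interval 0.22 to 0.51, 1.29-fold), with an unadjusted p of 0.00056 and a limma adjusted p of 0.0773. Moderation of the spread with a trend on expression and robust estimation brought CCNA2 past the threshold (limma adjusted p = 0.0166). CDK2, the partner of cyclins E and A, was at 8.76, 8.80 and 8.81 with and 9.12, 9.08 and 9.05 without doxycycline. Its groups were 0.24 apart. The difference of CDK2 was 0.29 (SE 0.06, 1.22-fold, limma adjusted p = 0.137).

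The E-type cyclins, which open S phase with CDK2, had differences of opposite sign. CCNE1 was at 6.25, 6.24 and 6.38 with and 6.34, 6.50 and 6.51 without doxycycline. Its groups overlapped, and the difference was 0.16 (SE 0.08, 95% confidence interval -0.03 to 0.35). CCNE2 was at 7.90, 7.74 and 7.91 with and 7.65, 7.60 and 7.69 without the drug. Here every array without doxycycline was the lower, by at least 0.05, and the difference was -0.20 (SE 0.07, 95% confidence interval -0.38 to -0.02, limma adjusted p = 0.347). Whether both genes differ in their response was not tested.

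**Figure D2:**
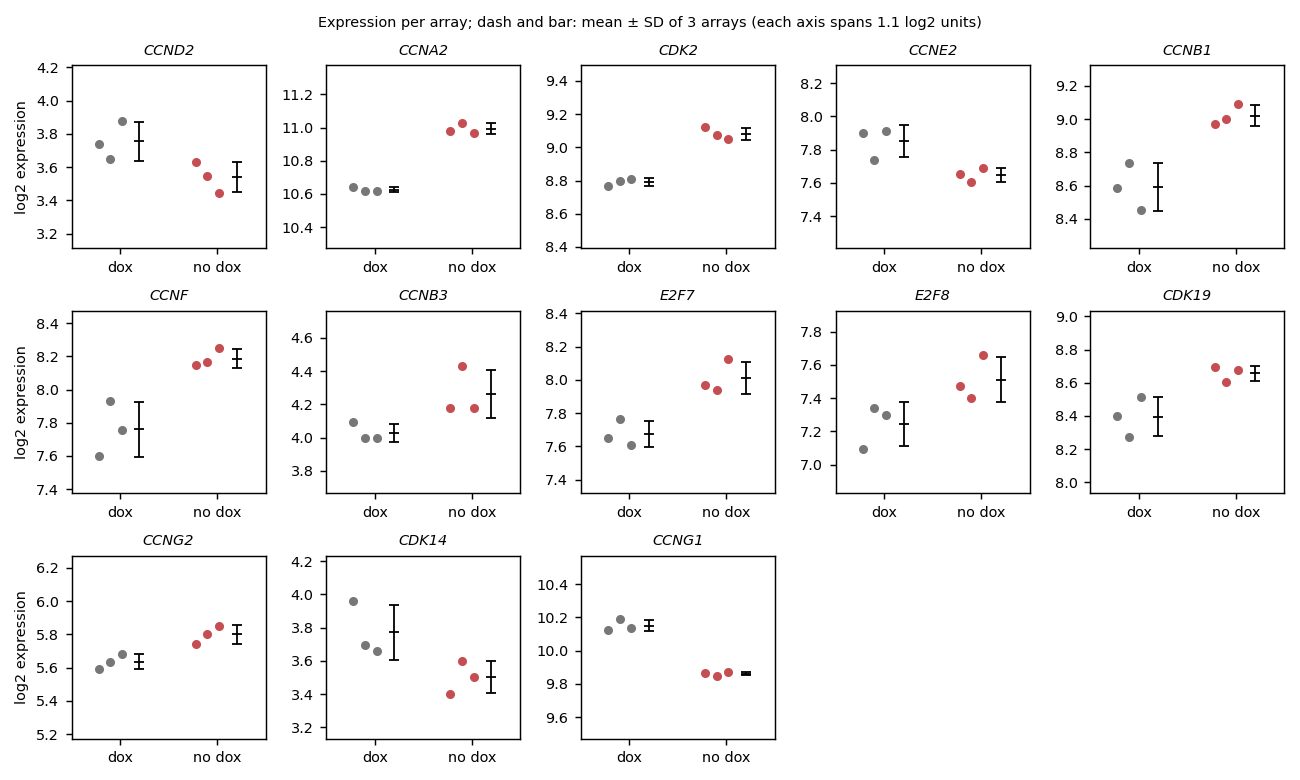
Log2 expression per array of the 13 genes with an unadjusted p below 0.05, with doxycycline (grey) and without it (red), each point 1 array. The dash and bar give the mean ± SD of 3 arrays, and each vertical axis spans the same range of 1.1 log2 units without starting at 0. Groups do not overlap in any of the 13 panels, and the widest gap is that of CCNA2 at 0.32. The panels were picked by p on these same arrays, which favours groups that lie apart. Of all named genes, 24.58% had groups that did not overlap.

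The G1 machinery showed small differences. CCND1, the D-type cyclin typical of neuroblastoma, was at 9.44, 9.50 and 9.52 with and 9.48, 9.52 and 9.47 without doxycycline. The groups overlapped fully, and the difference was 0.01 (95% confidence interval -0.14 to 0.15). CCND3, its relative, was dim at 4.25, 4.40 and 4.37 with and 4.28, 4.33 and 4.29 without the drug, again overlapping (difference -0.04, 95% confidence interval -0.20 to 0.12). CCND2 lay below the median value of 3.95 in every array, at 3.74, 3.65 and 3.88 with and 3.63, 3.55 and 3.44 without doxycycline. Its difference was -0.22 (SE 0.09, limma adjusted p = 0.393) with groups only 0.02 apart, and its dimmer probe set was at -0.01. No detection call shows whether a value this low lies above background.

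CDK4, a kinase partner of the D-type cyclins, was at 10.90, 11.10 and 10.71 with and 11.01, 11.02 and 10.85 without doxycycline. Its groups overlapped, with a difference of 0.06 (95% confidence interval -0.21 to 0.33). CDK6, the other partner, was at 10.39, 10.36 and 10.35 with and 10.51, 10.43 and 10.47 without the drug. These groups were 0.04 apart, at a difference of 0.10 (95% confidence interval -0.04 to 0.25). CDKN2A, whose locus encodes the CDK4 and CDK6 inhibitor p16 and the p53 activator ARF, was at 6.57 in each array with doxycycline and at 6.63, 6.71 and 6.75 without it. The 3 arrays without the drug were all higher, at a difference of 0.13 (SE 0.06, 95% confidence interval -0.02 to 0.28). The probe set is named by gene and is not assigned here to either product.

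The 5 E2Fs were at positive differences over all 6 arrays, although E2F2 and E2F3 lay on either side of 0 with 1 array left out (-0.08 to 0.13 and -0.03 to 0.10). The larger differences belonged to the atypical members, which repress E2F target genes without a DP partner. E2F7 was at 7.65, 7.76 and 7.61 with doxycycline and 7.97, 7.94 and 8.12 without it. The groups lay 0.18 apart, and the difference was 0.34 (SE 0.08, 95% confidence interval 0.14 to 0.53, 1.26-fold, limma adjusted p = 0.184). E2F8 was at 7.09, 7.34 and 7.30 with and 7.47, 7.40 and 7.66 without the drug. Its groups were 0.06 apart, at a difference of 0.27 (SE 0.10, limma adjusted p = 0.361).

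The activator E2Fs, which induce genes of S phase when released from RB, showed less. E2F1 was at 9.53, 9.49 and 9.50 with and 9.56, 9.61 and 9.73 without doxycycline, groups 0.04 apart and a difference of 0.13 (95% confidence interval -0.04 to 0.29). E2F2 and E2F3 both overlapped between groups, at differences of 0.03 (95% confidence interval -0.25 to 0.31) and 0.03 (-0.17 to 0.22). The interval of E2F2 is the widest of the 5 E2Fs, with an SD of 0.21 among arrays with doxycycline.

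The transcriptional branch had 7 kinases and 5 cyclins. Of these 12, 1 (CDK19, 8.33%) had an unadjusted p below 0.05, beside 14.45% of all named genes. CDK19, the paralog of CDK8 in the Mediator kinase module, was at 8.40, 8.27 and 8.51 with and 8.69, 8.61 and 8.67 without doxycycline. Its groups were 0.09 apart, and the difference was 0.26 (SE 0.08, 95% confidence interval 0.07 to 0.45, 1.20-fold, limma adjusted p = 0.271). CDK8 was at 8.68, 8.61 and 8.63 with and 8.64, 8.57 and 8.66 without the drug. These overlapped, at -0.01 (95% confidence interval -0.17 to 0.14). CCNC, the cyclin of both kinases, was at -0.06 (95% confidence interval -0.33 to 0.22).

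CDK7, the kinase of the general factor TFIIH that also activates other CDKs, was at 6.66, 6.92 and 6.68 with and 6.76, 6.76 and 6.66 without doxycycline. Its groups overlapped, at a difference of -0.03 (95% confidence interval -0.24 to 0.19). Its cyclin, CCNH, was lower in all 3 arrays without the drug, at 8.80, 8.80 and 8.85 against 8.95, 8.92 and 8.91, a difference of -0.11 (95% confidence interval -0.25 to 0.03). CDK9, the kinase of the elongation factor P-TEFb, was at 8.31, 8.25 and 8.52 with and 8.31, 8.35 and 8.32 without doxycycline. It overlapped as well, at -0.04 (95% confidence interval -0.24 to 0.17).

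CDK12 and CDK13, elongation kinases that share cyclin K, were at -0.08 and -0.02, while CCNK, encoding that cyclin, was at 0.15 (95% confidence interval -0.03 to 0.34). CDK10 was at -0.08, and CCNL1 and CCNL2, cyclins linked to splicing, were both at -0.09. Without CDK19, the 95% confidence intervals of the other 11 genes of this branch lay within -0.34 and 0.34.

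Outside these phases, CCNG1 had the lowest p among the lower genes. CCNG1, cyclin G1, is a p53 target that recruits a phosphatase and has no classical role with a CDK. It was at 10.12, 10.19 and 10.14 with doxycycline and 9.86, 9.85 and 9.87 without it. The groups lay 0.25 apart, the widest gap among the lower genes. The difference was -0.29 (SE 0.06, 95% confidence interval -0.43 to -0.15, 1.22-fold lower), with an unadjusted p of 0.0021 and a limma adjusted p of 0.135. With trend and robust moderation CCNG1 passed (limma adjusted p = 0.0405). Its relative CCNG2, known to be induced when cells stop dividing, had the opposite sign. CCNG2 was at 5.59, 5.64 and 5.68 with and 5.74, 5.80 and 5.85 without the drug, 0.06 apart, with a difference of 0.16 (SE 0.07, limma adjusted p = 0.382).

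CDK14, a PFTAIRE kinase that works with cyclin Y at the membrane, was dim, at 3.96, 3.70 and 3.66 with and 3.40, 3.60 and 3.51 without doxycycline. The groups were 0.06 apart and the difference was -0.27 (SE 0.10, limma adjusted p = 0.359). Without replicate 1 of the doxycycline group, its highest array, it was -0.18. CDK5, the kinase of postmitotic neurons, was at 8.62, 8.92 and 8.40 with and 8.63, 8.75 and 8.43 without doxycycline. It overlapped and had the widest 95% confidence interval of the 42 genes, -0.40 to 0.31 around -0.04. CDK16, CDK17 and CDK18, the PCTAIRE kinases, were at 0.11, -0.13 and -0.09. CDK15 and CDK20 were at -0.08 and -0.06, CCNI at -0.12 and CCNJ at 0.13.

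**Figure D3:**
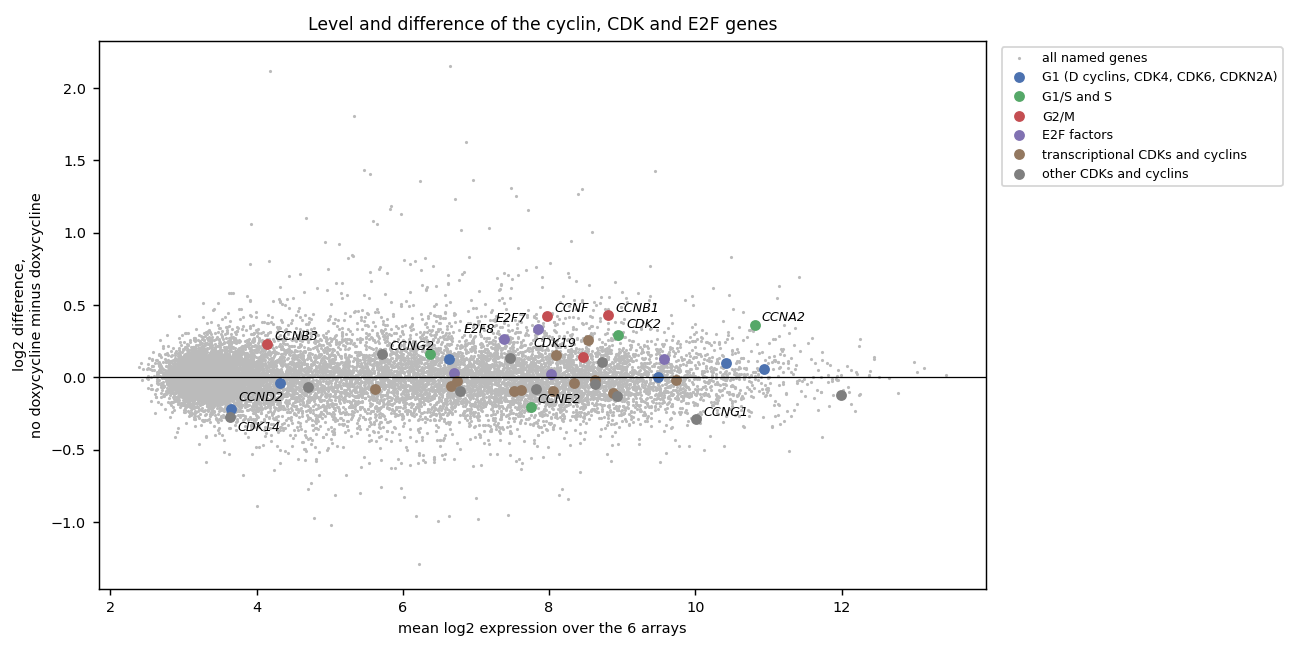
Log2 difference (no doxycycline minus doxycycline) against the mean log2 expression over the 6 arrays, for all 14884 named genes (grey) and the 42 genes by phase or branch (colours). The 13 genes with an unadjusted p below 0.05 are labelled. The cyclin, CDK and E2F genes lie between -0.29 and 0.43. All named genes range from -1.29 to 2.15, but those extremes come from many more genes and are no measure for a set of 42.

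Groups did not overlap in 23 of the 42 genes (54.76%) and in 24.58% of all named genes. In 16 of the 42 genes every array without doxycycline was higher than every array with it, and in 7 every one was lower. Among all named genes these shares were 12.1% and 12.5%. The count of lower genes was the nearer to its share. Of the 13 genes with an unadjusted p below 0.05, CCNA2, CCNB1, CCNF, CDK2, E2F7, CDK19 and CCNG1 kept that level with any 1 of the 6 arrays left out. CCNB3 and CDK14 kept it in 3 of the 6 cases, CCND2, CCNE2 and E2F8 in 2, and CCNG2 in 1. All 13 kept their sign in all 6, which was fixed in advance because their groups did not overlap. At the median SE of these genes, 0.078, a log2 difference of about 0.59 would have been needed for the adjusted threshold, and none reached it.

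Partners and modifiers of these proteins were read from 4 lists of 47 genes, of which 37 were measured. CDC25C, the phosphatase that activates cyclin B with CDK1, was the only one past the adjusted threshold, beside 0.341% of all probe sets. It was at 6.06, 6.18 and 6.18 with and 6.67, 6.87 and 6.77 without doxycycline, with no overlap. CDC25C rose by 0.63 (SE 0.08, 1.55-fold, limma adjusted p = 0.0449). The call was lost with any 1 array left out (limma adjusted p 0.114 to 0.171), while the difference stayed between 0.58 and 0.68. In those fits the calls over all probe sets fell from 133 higher and 50 lower to 0 to 12 and 0 to 3.

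At an unadjusted p below 0.05, 7.57% of all named genes were higher and 6.87% lower. Of the 14 measured modifiers and cofactors of CDKs, 10 were at positive differences with a median of 0.21. At that level of p, 7 of the 14 were higher and none lower. Beside CDC25C these were CDKN3, a phosphatase of CDKs (0.34), CDC25B (0.31), the anaphase-promoting complex activator FZR1 (0.28), the CDK subunits CKS2 (0.27) and CKS1B (0.17), and CDK2AP1 (0.26). CDC25A, the phosphatase that acts at G1/S, was at -0.01 (95% confidence interval -0.24 to 0.22), and WEE1, the kinase opposing CDC25, at 0.07.

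Among the 11 RB family members and E2F partners none passed the adjusted threshold. At an unadjusted p below 0.05, 2 were higher (MYBL1 and LIN37) and 1 was lower (TFDP2), beside 7.57% and 6.87% of all named genes. MYBL1, a MYB factor that can join the MuvB complex, was at 0.46 (SE 0.07, limma adjusted p = 0.0731), and LIN37 at 0.18. TFDP2, one of the DP partners of the E2Fs, was at 9.08, 9.08 and 9.06 with and 8.76, 8.71 and 8.80 without doxycycline. Its difference was -0.32 (SE 0.06, limma adjusted p = 0.117), while TFDP1 was at -0.04. RB1, RBL1 and RBL2, the 3 pocket proteins, were at 0.06, 0.15 and -0.03.

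None of the 8 partners of transcriptional CDKs and none of the 4 activators of CDK5 and PCTAIRE kinases had an unadjusted p below 0.05. Of all named genes, 14.45% had such a p. The medians of these lists were -0.08 and 0.09. The cyclins T of CDK9, CCNT1 and CCNT2, were at -0.06 and -0.09, and the Mediator subunits MED12L and MED12 at -0.19 and 0.13.

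**Figure D4:**
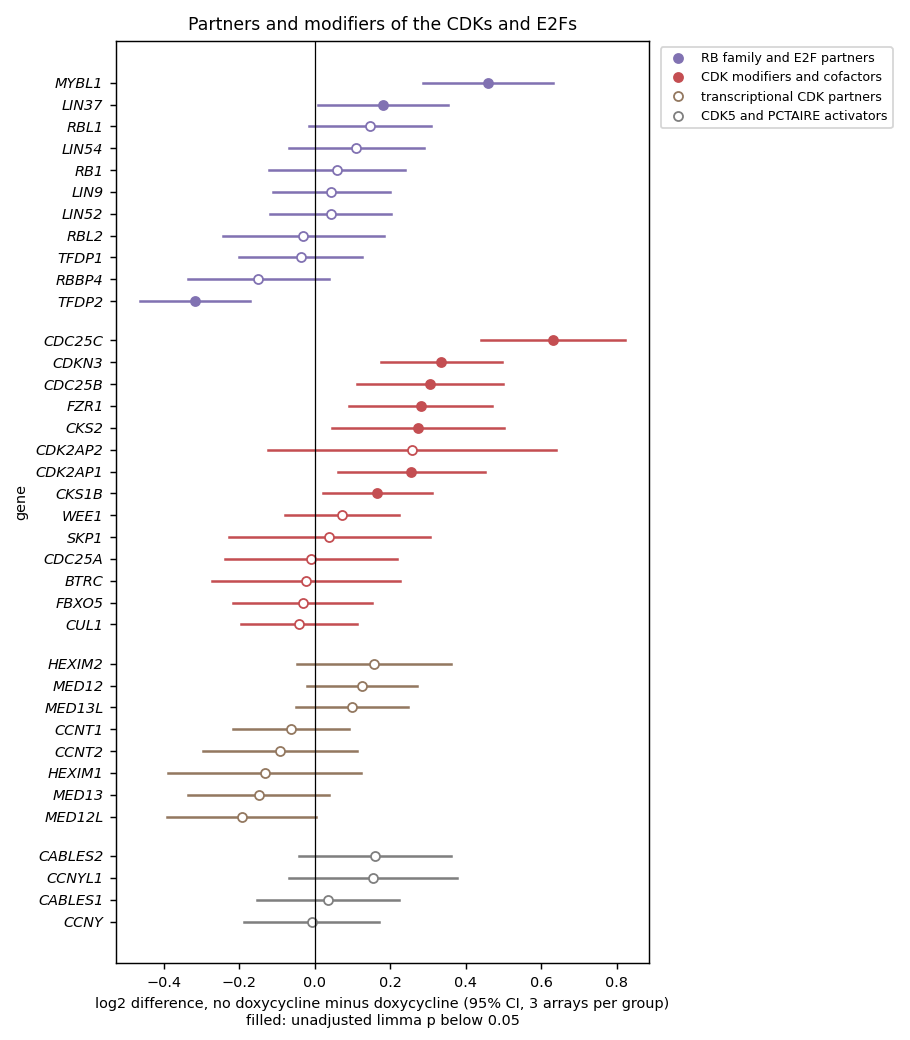
Log2 difference (no doxycycline minus doxycycline) of the 37 measured partners and modifiers, with 95% confidence intervals from 3 arrays per group, by list. Filled points have an unadjusted limma p below 0.05. CDC25C at 0.63 and MYBL1 at 0.46 are the highest and TFDP2 at -0.32 is the lowest.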

How the data were processed

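RNA of 6 samples was measured on Affymetrix whole-transcript arrays. The authors deposited log2 expression values per probe set, made with Partek per the submitters' processing notes. How background, normalization and summarization were handled, and the genome build, is not given in the sources used here. Values ran from 2.12 to 14.3, which fits log2. Array medians lay between 3.94 and 3.96. No detection calls were used, and the number of arrays limits the precision. P-values measure the spread between these samples, which may be technical.

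All 53617 probe sets were fitted with limma 3.58.1 (R 4.3.3, lmFit and eBayes), with no covariate or filter, after a check on simulated data. Gene names came from the platform annotation in GEO. The probe set with the highest mean stood for a gene. Every gene of the rule is reported; those with an unadjusted p below 0.05, and a fixed set of core cell cycle genes, by array. In the partner lists, genes past the threshold or the smallest p values are named, with others added after their values were seen. Members and lists were chosen with earlier results of these data known. Alternatives were quantile normalization, trend and robust moderation, a filter on dim probe sets, averaged probe sets, a replicate block and each array left out.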

Additional observations from a re-analysis of the deposited data

How the results depend on the processing

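The number of called genes among the 42 was 0 in each direction under all alternatives but one. With trend and robust moderation 1 was higher (CCNA2) and 1 lower (CCNG1), while the calls over all probe sets went from 133 higher and 50 lower to 255 and 130. That setting called 2 partner genes, CDC25C and TFDP2, in place of 1. Alternatives for the partner genes were chosen after seeing the data. The count at an unadjusted p below 0.05 was 9 higher and 4 lower. The lower count was 2 without dim probe sets, which removed CCND2 and CDK14, and 2 with the replicate block. With 1 array left out, 6 to 9 were higher and 1 to 4 lower: 1 lower without doxycycline-treated replicate 1, and 2 without doxycycline-treated replicate 3 or untreated replicate 1 or 3. With the replicate block 0 of 53617 probe sets were called, and CDC25C was lost (limma adjusted p = 0.162). Over all probe sets, the deviations of same-numbered arrays from their group means had correlations of -0.01, -0.01 and 0.04. These values include many dim probe sets and rest on 3 arrays per group. Whether the numbers mark pairs cannot be told from them. Leaving out 1 array left 0 to 12 higher and 0 to 3 lower probe sets called and 0 partner genes.

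Without dim probe sets 40 of the 42 genes were left, with a median difference of 0.016. With 1 array left out the median of all 42 ran from -0.018 to 0.031, for G1 genes from -0.001 to 0.059, for E2Fs from 0.081 to 0.161 and for transcriptional genes from -0.064 to -0.031. Leaving out 1 array changed the sign of 12 genes, whose differences over all arrays lay between -0.08 and 0.06: CCNC, CCND1, CDK4, CDK5, CDK7, CDK8, CDK9, CDK13, CDK15, CDK20, E2F2 and E2F3. Dim genes have no measured background here.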
